A study of Mus musculus with 8 samples.

Results

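The widest continuous stretches of open chromatin at the ends of protein-coding genes were followed through an ATAC-seq study of group 2 innate lymphoid cells (ILC2s), a type of lymphocyte without antigen receptors that makes type 2 cytokines. In ATAC-seq the Tn5 transposase cuts and tags accessible DNA, and reads pile up where chromatin is open. The cells came from the thymus of C57BL/6 mice with the plck-Id1 transgene, in which the proximal Lck promoter drives Id1, a protein that binds E proteins and blocks them. There were 8 samples in 4 groups of 2, and each group had 1 peak list made by the authors from its samples, so replicate error could not be measured and groups could not be tested. The groups were E47 at 16 h, E47 at 4 h, GFP at 16 h and GFP at 4 h of 4-hydroxytamoxifen. E47 cells carried a MIGR1 retrovirus for GFP and E47-ER, in which E47, an E protein made from Tcf3, is joined to an estrogen receptor part that the drug activates, and GFP cells carried the vector for GFP alone. All groups shared the Id1 transgene, the sort for GFP, the expansion in cytokines and the drug. The labels give neither the ages of the mice nor whether paired samples are separate cultures or animals.

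The labels disagree with each other about the vector. Titles, transduction labels and list names put both samples of a group under 1 vector, and these were used. The free-text descriptions instead give replicate 1 of every group the plain vector and replicate 2 the E47-ER vector, under which every list would pool both. Every comparison of E47 with GFP lists rests on the titles. Sequencing depth is unknown here. The labelled cell type was checked on marker genes: 9 of 10 ILC2 markers had a region in the gene body or within 1 kb in each of the 4 lists, against 3, 3, 3 and 2 of 6 T cell markers in E47 16 h, E47 4 h, GFP 16 h and GFP 4 h. In the same order, NK and ILC1 markers had one at 3, 3, 2 and 2 of 5, ILC3 markers at 3, 3, 1 and 1 of 5 and myeloid markers at 2, 3, 2 and 2 of 5. B cell and thymic stroma markers had one at 3 of 5, and mast cell markers at 2 of 4, in every list. In GFP 4 h, markers with none included Cd3e, Cd3g, Cd8a, Ptcra, Ms4a1, Ncr1 and Eomes, and the ILC2 marker without one was Ptgdr2. At a gene end, 6, 7, 7 and 6 of the 10 ILC2 markers had a region, and Gata3, Il1rl1 and Rora lacked one in GFP 4 h. Open chromatin in a gene body is no measure of expression or of cell numbers.

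Open chromatin at a promoter is where the transcription machinery and transcription factors gain access to DNA. Many mammalian promoters lie in CpG islands, stretches rich in the dinucleotide CpG, which tend to be open in many cell types. E proteins such as E47 and HEB bind E-boxes, short sites of the form CANNTG, and Id proteins keep them from doing so.

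Overlapping lines were merged into regions within each list. In each list they shared 1 interval with several summits, and 0 regions joined different intervals. A region entered when it was 1500 bp or wider in GFP 4 h and had the first or last base of a protein-coding gene within 1 kb. The rule kept 216 of the 42665 regions of GFP 4 h (0.506%). The same list held 13466 narrower regions at gene ends and 56 equally broad ones away from them. Members were thus chosen by their width in GFP 4 h, so widths, summit counts and enrichment in that list are a description only.

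The promoters of 5 of the widest members are printed to show what kind of sequence lies in them. Each is the RefSeq GRCm38.p6 window (the assembly named mm10) of 250 bases before and 50 from the recorded start on, 5′ to 3′ on the strand of the gene, with every CpG in capitals. Crlf2 encodes a subunit of the receptor for the cytokine TSLP (chr5:109558944-109559243, minus strand). Zfp91 encodes a zinc finger ubiquitin ligase (chr19:12796074-12796373, minus strand). Anp32b encodes an acidic nuclear protein that binds histones (chr4:46450676-46450975, plus strand). Arid1b encodes a subunit of the BAF chromatin remodelling complex (chr17:4994824-4995123, plus strand). Kctd12 encodes an auxiliary subunit of GABA-B receptors (chr14:102982588-102982887, minus strand).
Crlf2: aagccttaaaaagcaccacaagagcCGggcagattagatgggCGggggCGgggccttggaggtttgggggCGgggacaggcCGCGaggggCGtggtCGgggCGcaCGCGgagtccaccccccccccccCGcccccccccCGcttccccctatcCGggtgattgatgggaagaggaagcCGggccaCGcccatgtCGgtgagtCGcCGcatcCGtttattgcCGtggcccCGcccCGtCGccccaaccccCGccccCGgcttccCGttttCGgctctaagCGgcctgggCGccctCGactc
Zfp91: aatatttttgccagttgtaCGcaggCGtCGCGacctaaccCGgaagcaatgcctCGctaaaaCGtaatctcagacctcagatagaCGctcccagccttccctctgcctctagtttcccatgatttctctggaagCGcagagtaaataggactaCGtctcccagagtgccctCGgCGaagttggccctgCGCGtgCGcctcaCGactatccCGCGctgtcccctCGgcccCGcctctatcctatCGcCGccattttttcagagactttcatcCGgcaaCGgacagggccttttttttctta
Anp32b: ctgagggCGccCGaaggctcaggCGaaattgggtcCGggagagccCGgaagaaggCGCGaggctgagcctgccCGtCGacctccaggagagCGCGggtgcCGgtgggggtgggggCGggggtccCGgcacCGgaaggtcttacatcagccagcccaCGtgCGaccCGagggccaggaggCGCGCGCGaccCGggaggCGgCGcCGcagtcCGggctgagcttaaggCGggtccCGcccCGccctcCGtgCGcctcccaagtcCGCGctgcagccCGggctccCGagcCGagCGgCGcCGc
Arid1b: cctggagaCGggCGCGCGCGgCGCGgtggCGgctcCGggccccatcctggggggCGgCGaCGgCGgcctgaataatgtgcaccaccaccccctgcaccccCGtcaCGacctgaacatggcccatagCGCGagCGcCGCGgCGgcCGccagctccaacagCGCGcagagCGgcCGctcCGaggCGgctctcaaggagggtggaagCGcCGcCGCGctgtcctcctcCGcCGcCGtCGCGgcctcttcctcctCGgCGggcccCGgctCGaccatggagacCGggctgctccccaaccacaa
Kctd12: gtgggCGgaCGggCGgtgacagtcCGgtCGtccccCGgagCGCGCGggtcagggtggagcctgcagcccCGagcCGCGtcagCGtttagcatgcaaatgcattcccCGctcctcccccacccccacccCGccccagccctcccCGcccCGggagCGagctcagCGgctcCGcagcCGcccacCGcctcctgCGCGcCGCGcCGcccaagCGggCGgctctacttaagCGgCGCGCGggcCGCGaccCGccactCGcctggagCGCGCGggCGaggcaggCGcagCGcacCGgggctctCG

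These windows held 31 CpGs at Crlf2, 24 at Zfp91, 40 at Anp32b, 42 at Arid1b and 45 at Kctd12, and G and C made up 71.7%, 55%, 76.3%, 75.3% and 78% of their bases in the same order. Over the 232 recorded starts that lay inside broad gene-end regions, the median was 32 CpGs per 300-base window. It was 22 for the 10151 starts inside narrower GFP 4 h regions, 4 for the 10836 starts in no region and 13 over the 21263 windows of protein-coding genes. Median GC content was 70.3% in the broad gene-end regions, 62.3% in narrower ones, 49.7% with no region and 56.3% over all windows. The 44 starts in broad regions away from gene ends had medians of 29 CpGs and 69.7% G and C, near those of the broad gene-end regions. The starts with fewest CpGs were those of 4931408C20Rik, an unnamed gene, with 0 and of Duxf3, the mouse Dux gene, with 3. The most were in the window of A930018O16Rik, with 57, and of Kmt2c, a histone methyltransferase gene, with 56.

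**Figure D1:**
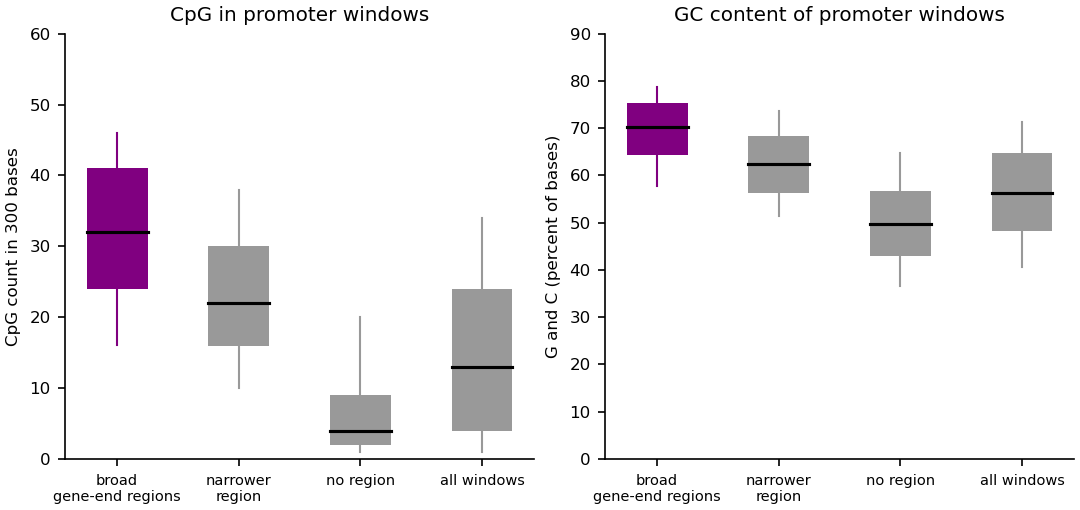
CpG count (left) and GC content in percent (right) of the 300-base promoter windows, by the GFP 4 h region in which the start lies; bars run from the 25th to the 75th percentile, lines from the 10th to the 90th, and black bars are medians. The median CpG count was 32 in broad gene-end regions, 22 in narrower regions, 4 outside regions and 13 over all windows. The 44 starts in broad regions away from gene ends are not drawn as a class.

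Short motifs were searched in the same windows on both strands. GGGCGG, the box bound by SP factors, was present in 81.9% of the windows in broad regions, 70.3% of those in narrower regions and 46.2% of all. An E-box of the form CANNTG was present in 44.8%, 61.3% and 69.0% in the same order. Of its forms, CAGCTG was present in 11.6%, 13.7% and 15.6%, and CAGGTG in 9.05%, 17.1% and 19.7%. TATAAA was present in 3.45%, 5.64% and 12.6%. In the 44 windows of starts in broad regions away from gene ends, GGGCGG was present in 70.5% and CANNTG in 50%. There CAGCTG was present in 9.09%, CAGGTG in 20.5% and TATAAA in 0%. Both CAGCTG and CAGGTG are also counted under CANNTG. GC content also differed between these classes of window, as given above, and the motif shares were not adjusted for it. The windows cover a small part of each region, and a match or its lack says nothing of binding.

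The label "gene ends" was mostly a matter of gene starts. RefSeq gives a start for at least 1 gene at 173 of the 216 regions. At 168 of these (97.1%, exact 95% binomial interval 93.4% to 99.1%) a recorded start lay within 1 kb, against 90.1% of narrower gene-end regions. A start lay inside 165 (95.4%), against 67.1% of narrower ones, and a wider region has more room for one. Intervals cover counting error only, and regions are not replicates. No recorded start lay within 1 kb of 4 of the 168 regions whose genes all have a record. Of the 165 with a start inside, 31 (18.8%) held starts of 2 genes on opposite strands, against 8.87% of narrower regions. Usf2 with Lsr, Setd5, Luc7l2, Zbtb20 and Iqsec1 were the 5 places where the genes with a record had no start within 1 kb. Genes whose 2 ends both lay within 1 kb of the region included Socs1 and Jund, which are short.

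The orientation could be read at 134 regions with starts on 1 strand. They reached a median of 644.5 bp upstream of the start and 961 bp downstream, and the upstream side was the longer at 40 of 134 (29.9%). The strongest summit lay within 250 bp of the start at 95 (70.9%) and upstream of it at 101 (75.4%), with a median position of -87 bp. Some regions held several recorded starts of the gene. At Cul1, Rab43 and Clock the start used was the one nearest the strongest summit, so distances at such regions are partly set by that choice. Fold enrichment, the authors' ratio of a peak over its local background, had a median of 8.64 for the 337 summits within 250 bp of the start. It was 4.73 for the 216 summits 250 to 750 bp upstream and 3.89 for the 279 at the same distance downstream. Beyond 750 bp it was 4.34 upstream (69 summits) and 3.67 downstream (217 summits). Broad regions were thus mostly a strong summit at the start with weaker ones on each side. Crlf2 differed: only 89 bp of its 2349 bp lay upstream, and its strongest summit lay 1968 bp downstream of the start.

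**Figure D2:**
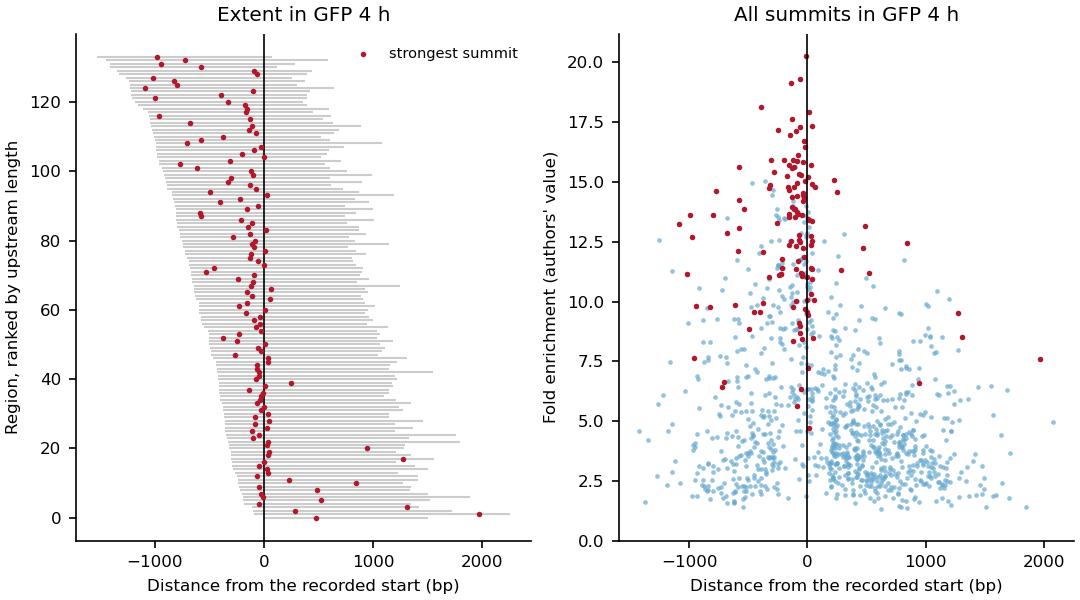
Left, the span of 134 broad gene-end regions in GFP 4 h around the recorded start (0 on the x axis, in bp, upstream negative), ranked by upstream length, with the strongest summit of each in red; right, the fold enrichment of every summit against its distance from the start. The strongest summit lay within 250 bp of the start in 95 of 134.

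In GFP 4 h the regions had a median width of 1593.5 bp (range 1500 to 2349), against 407 bp over all regions of the list. They held a median of 8 summit lines (5 to 12), against 2. Regions with the most lines included Crlf2, Lpxn with Zfp91 and Nectin3, then H2ac19 with H3c15 and Arid1b, which were tied with others. Neighbouring summits were a median of 194 bp apart, against 188 bp in narrower gene-end regions, so the summits were spaced alike and the broad regions held more of them. The highest fold in a region had a median of 13.1 (4.40 to 20.3), and the weakest summit of a region had a median of 17.9% of its strongest. The rank by −log10 p, as a percentile of the list, had a median of 90.8. The lowest was 10.7, at 4931408C20Rik, and the highest 99.8, at Sp4, a gene of the SP family. At the threshold, the 5 regions just inside were Iqsec1, Hs2st1 with Selenof, Dusp4 (each 1500 bp), Alg5 with Exosc8 and Nisch (each 1501 bp). Just outside were Usp1 and Qk with Gm46608 (each 1498 bp), Scaf11 and Sfr1 (each 1497 bp) and Rnf217 (1495 bp).

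The 10 widest were the regions at Crlf2, Lpxn with Zfp91, Anp32b, Chst2, H2ac19 with H3c15, Arid1b, Gm20783 with LOC108167694, Kctd12, Rev3l and H2ac18 with H3c14. Crlf2 was called over 2240 bp in E47 16 h and 2256 bp in E47 4 h, against 2071 bp in GFP 16 h and 2349 bp in GFP 4 h (chr5:109556734-109559082). In both E47 lists its end at higher coordinates was a separate region, of 144 bp and 136 bp. The shared region of Lpxn, an adaptor protein gene, and Zfp91 summed to 2240 bp in E47 16 h and 2333 bp in E47 4 h, against 2225 bp in GFP 16 h and 2274 bp in GFP 4 h. Kctd12 was nearly constant, with 2035 bp and 2052 bp in E47 16 h and 4 h and 2035 bp and 2034 bp in GFP 16 h and 4 h. Of the 2 histone regions, H2ac19 with H3c15 had 1794 bp in E47 16 h and 2094 bp in E47 4 h, and 1786 bp in GFP 16 h and 2083 bp in GFP 4 h, so that it was narrower in both 16 h lists. H2ac18 with H3c14 had 1983 bp and 1935 bp in E47 16 h and 4 h, against 1747 bp and 1980 bp in GFP 16 h and 4 h. H2ac18 and H2ac19, and H3c14 and H3c15, are near-identical copies side by side on chromosome 3, where short reads may be assigned to either, so their separate values are uncertain.

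The gene lists show which kinds of gene had such regions. Over all protein-coding genes, 262 of the 11563 with a gene-end region in GFP 4 h had a broad one (2.27%). Among translation factors 4 of 21 did: Eif4e, the cap-binding protein, Eif4g2, Eef1a1 and Eif4a1. Among splicing factors and RNA-binding proteins 6 of 35 did: Srsf2, Srsf7, Hnrnpk, Hnrnpu, Ptbp1 and Sfpq. The median of the widest gene-end region per gene was 1167 bp and 1115 bp in these lists, against 843 bp over all genes. Feedback inhibitors of signalling had 3 of 22 (Spred1, Socs1 and Dusp4), lymphoid transcription factors 4 of 35 (Zeb1, Satb1, Gabpa and Cbfb) and chromatin enzymes 4 of 38 (Arid1b, Kat6a, Ep300 and Ezh2). Ribosomal protein genes had 1 of 77 (Rpl7), proteasome genes 1 of 33 (Psma7), cell cycle and survival genes 1 of 31 (Cdkn2a) and AP-1 and early response genes 1 of 32 (Jund). Replication-dependent histone genes had 4 of 61, which are the 2 regions above.

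Immune genes were mixed. Of 23 ILC2 genes with a gene-end region, Crlf2 and Pparg, a nuclear receptor, had a broad one. Of 12 E protein and Id genes only Tcf12 did, the gene of the E protein HEB. The list of further cytokine receptors and JAK-STAT genes had 0 of 27, but it leaves out Crlf2, counted above, and Csf2ra, the GM-CSF receptor alpha chain gene, which is also among the 216. Csf2ra, named here after its values were seen, had 2059 bp in E47 16 h and 1757 bp in E47 4 h, against 1871 bp in GFP 16 h and 1794 bp in GFP 4 h. Of the listed genes with a gene-end region, 0 of 21 NF-kB genes, 0 of 19 T cell genes, 0 of 17 homing and adhesion genes and 0 of 4 markers of other cells had a broad one. No list was tested, and genes that share a region are counted separately.

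Among the genes whose widths are given in this paragraph, Pparg and Satb1 had the smallest spread over the 4 lists. Pparg had 1704 bp in E47 16 h and 1729 bp in E47 4 h, against 1728 bp in GFP 16 h and 1733 bp in GFP 4 h. Tcf12 had 1534 bp and 1707 bp in E47 16 h and 4 h, against 1403 bp and 1603 bp in GFP 16 h and 4 h. Both 16 h lists were thus the narrower ones at Tcf12. Socs1, an inhibitor of cytokine signalling, had 1346 bp and 1312 bp in E47 16 h and 4 h, against 1297 bp and 1565 bp in GFP 16 h and 4 h, and was split in 2 in the 3 other lists. Satb1, a chromatin organiser of lymphocytes, had 1781 bp and 1906 bp in E47 16 h and 4 h, against 1840 bp and 1819 bp in GFP 16 h and 4 h. Spred1, an inhibitor of Ras signalling, had 1376 bp and 1727 bp in E47 16 h and 4 h, against 1378 bp and 1658 bp in GFP 16 h and 4 h. Dusp4, a phosphatase that acts on MAP kinases, had 1590 bp and 1779 bp in E47 16 h and 4 h, against 1444 bp and 1500 bp in GFP 16 h and 4 h. Both E47 lists were wider than the GFP list of the same time at Dusp4. This held at 46 broad gene-end regions, while 62 were narrower in E47 at both times. GFP 4 h chose the regions, and Dusp4 lay at the threshold of width there. Eif4e had 3 regions in each of the other lists, summing to 1549 bp in E47 16 h, 1772 bp in E47 4 h and 1648 bp in GFP 16 h, against 1921 bp in GFP 4 h, where the rule asked for 1 region.

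Nearly every broad gene-end region was found again. An overlapping region was called at 216 of 216 in E47 16 h, 216 in E47 4 h and 215 in GFP 16 h. Over all GFP 4 h regions, 22% were not called in E47 16 h, 12.4% in E47 4 h and 8.02% in GFP 16 h. Of narrower gene-end regions, 91.7%, 96.0% and 95.8% were called in the same order. Broad regions away from gene ends were called at 56 of 56 in each list, so being found again was not particular to gene ends. Those 56 regions also held 44 recorded starts, so they are not a class without promoters. A wide region is also easier to overlap by 1 bp. The exception among the 216 was 4931408C20Rik, with no region in GFP 16 h, and a region not called may still be open. The rule asked for 1 unbroken region in GFP 4 h, so splits could appear in the other lists alone, and their shares are a description. A split into 2 or more regions was seen at 39 (18.1%) in E47 16 h, 51 (23.6%) in E47 4 h and 57 (26.4%) in GFP 16 h. The share over all GFP 4 h regions was 3.16%, 3.2% and 3.96% in the same order. With another list choosing, 13.3% to 25.4% were split in the lists that did not choose, and in GFP 4 h itself 16.7%, 16.3% and 13.7% were split with E47 16 h, E47 4 h and GFP 16 h choosing. A wider region also has more places to split, so these shares are not a matched comparison, and in the 56 broad regions away from gene ends they were 28.6%, 26.8% and 26.8%.

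The gaps were short. Over the 3 other lists there were 176, with a median of 60 bp (47 to 295), and 165 of them held no summit of GFP 4 h. Of 96 that could be placed by strand, 57 lay downstream of the start and 25 within 250 bp of it. At 16 regions the split was present in all 3 other lists, among them Eif4e, Tnik, Ppargc1b, Gab2, Socs1, Inpp5d (the phosphatase SHIP1) and Cd164, and 127 regions were split in none. A single region of 1500 bp or more remained at 142 in E47 16 h, 149 in E47 4 h and 137 in GFP 16 h, at 101 in all 3 and at 35 in none.

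Summed over its parts, the width was almost the same in each list. The median was 1584 bp in E47 16 h, 1617 bp in E47 4 h and 1614 bp in GFP 16 h, against 1593.5 bp in GFP 4 h. The other lists covered a median of 98.4%, 99.4% and 98.5% of the span of the GFP 4 h region in the same order. In narrower gene-end regions these medians were 98.3%, 99.4% and 99.1%, and over all GFP 4 h regions 94.7%, 98.4% and 98.5%. High coverage was thus not particular to the broad regions. Median fold was 13.2 in E47 16 h, 13.4 in E47 4 h and 13.3 in GFP 16 h, and 13.1 in GFP 4 h. These folds belong to each list alone, and neither a change nor the lack of one can be read from them. The number of summit lines was within 1 of that in the GFP list at 165 of 215 regions at 16 h and 166 of 216 at 4 h. No count over all regions was made for comparison, and at 4 h the GFP list is the one that chose the regions.

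**Figure D3:**
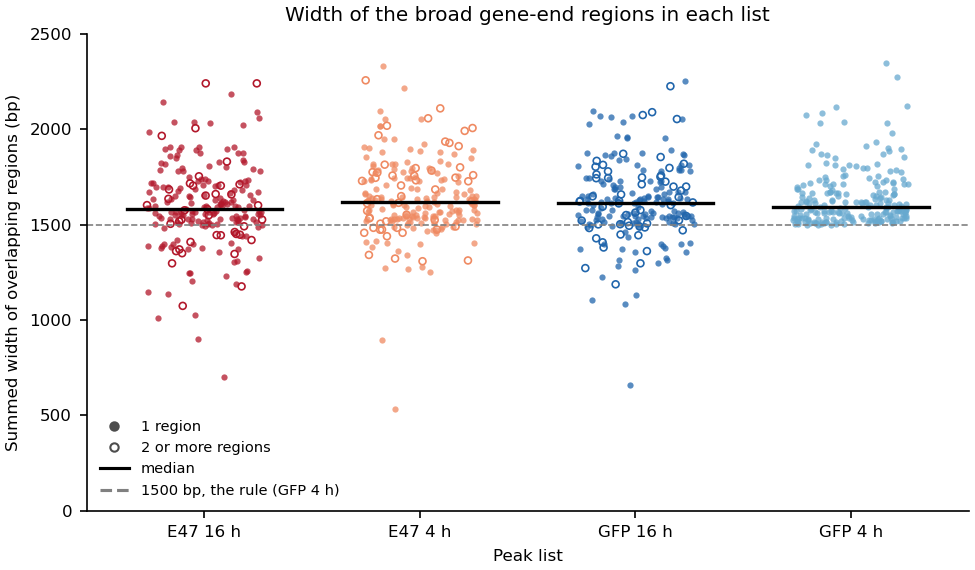
Summed width in bp of the regions overlapping each of the 216 broad gene-end regions in the 4 peak lists; filled points are 1 region, open points 2 or more, black bars medians, and the dashed line the 1500 bp that chose the members in GFP 4 h. Medians lie between 1584 and 1617 bp, and few points fall under 1000 bp.

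E47 lists were compared with GFP lists at each time. At 16 h, where neither list chose the regions, the median ratio of summed width, E47 over GFP, was 0.993 over 215 regions (5th to 95th percentile 0.846 to 1.15). It was 0.985 over the 32052 GFP 4 h regions called in both lists. In base pairs the median absolute difference was 51, against 38 in narrower gene-end regions. Counting any difference, 80 regions were wider in E47 and 132 narrower, and over all regions 12961 were wider and 18629 narrower. Past 1.5-fold, 2 regions were wider in E47 (Zbtb10 and Duxf3) and 2 narrower (Zfp609 and Gnb1). The background over all regions was 6.09% wider and 9.48% narrower, above the 0.930% in each direction here. A wide region needs a change of more bases to pass the fold, so this is not a matched comparison. At 4 h the median ratio was 1.003 over 216 regions, with 0 wider past 1.5-fold and 2 narrower (Zfp609 and 4931408C20Rik), against a background of 13.7% wider and 3.27% narrower. GFP 4 h chose the regions for width, so nothing is read from that comparison.

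**Figure D4:**
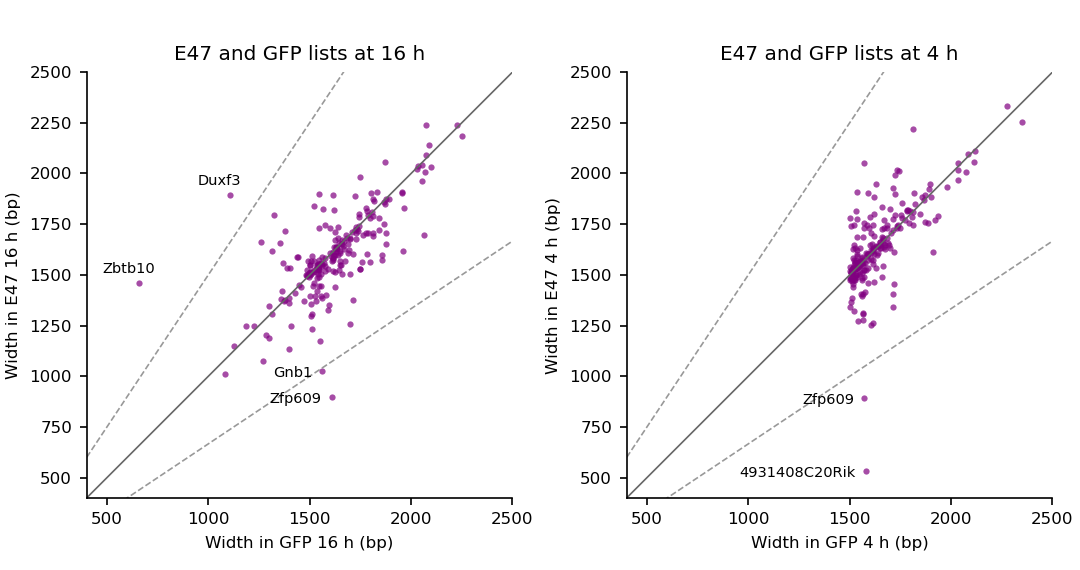
Summed width in bp in the E47 list (y) against the GFP list (x) at 16 h (left) and 4 h (right), 1 point per broad gene-end region called in both; the solid line is equality, dashed lines are 1.5-fold, and regions past them are named. Most points lie along equality, with 4 past 1.5-fold at 16 h and 2 at 4 h; the edge at 1500 bp on the right x axis is the rule.

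Times were compared within each vector. In E47 the median ratio of 16 h over 4 h was 0.990 over 216 regions, with 1 wider past 1.5-fold (Duxf3) and 2 narrower (Gnb1 and Zfp777), against a background of 4.15% wider and 9.87% narrower. By any amount, 71 were wider at 16 h and 143 narrower. Over the 32228 GFP 4 h regions called in both E47 lists, 10941 were wider and 20715 narrower. Of the 56 broad regions away from gene ends, 12 were wider and 44 narrower, so narrower was the commoner direction there too. In GFP the median ratio was 0.999 over 215 regions, with 0 wider and 1 narrower (Zbtb10), against a background of 11.7% wider and 3.08% narrower. GFP 4 h chose the regions for width, so nothing is read from this count, and with GFP 16 h choosing the ratio was 1.031 with 9 of 241 past the fold. The E47 16 h list was the shorter E47 list (40649 regions against 49811 at 4 h), and the part of depth in these ratios was not tested.

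In at least 1 of the 4 comparisons, 6 of the 216 regions passed 1.5-fold. The same count over all regions was not made, and a wide region needs a change of more bases to pass. Zfp609, a zinc finger gene, was the single one to do so in 1 direction at both times (chr9:65826276-65827847). It had 899 bp in E47 16 h and 893 bp in E47 4 h, against 1611 bp in GFP 16 h and 1572 bp in GFP 4 h, the list that chose it. On the side of lower coordinates, both GFP lists called chromatin that neither E47 list did, as regions of 304 and 313 bp in GFP 16 h. Its rank was low for the set, at percentile 41.0 of GFP 4 h. Gnb1, a G protein beta subunit gene, had 1028 bp in E47 16 h and 1626 bp in E47 4 h, against 1563 bp in GFP 16 h and 1615 bp in GFP 4 h. The missing stretch in E47 16 h matched a separate region of 547 bp in GFP 16 h, with a fold of 3.57. Zfp777 was narrow in both 16 h lists, with 1010 bp in E47 and 1082 bp in GFP, against 1620 bp and 1615 bp in the 4 h lists.

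Zbtb10, a zinc finger repressor gene, stood apart in GFP 16 h, with 657 bp there and 1458, 1457 and 1717 bp in E47 16 h, E47 4 h and GFP 4 h. Duxf3 had 1893 bp and 1252 bp in E47 16 h and 4 h, against 1105 bp and 1606 bp in GFP 16 h and 4 h. It is 1 copy of a repeated array, where reads may come from other copies, so its values are uncertain. 4931408C20Rik had 700 bp in E47 16 h, 532 bp in E47 4 h, none in GFP 16 h and 1581 bp in GFP 4 h. Each of these patterns rests on 1 list per group, and no error can be put on it.

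**Figure D5:**
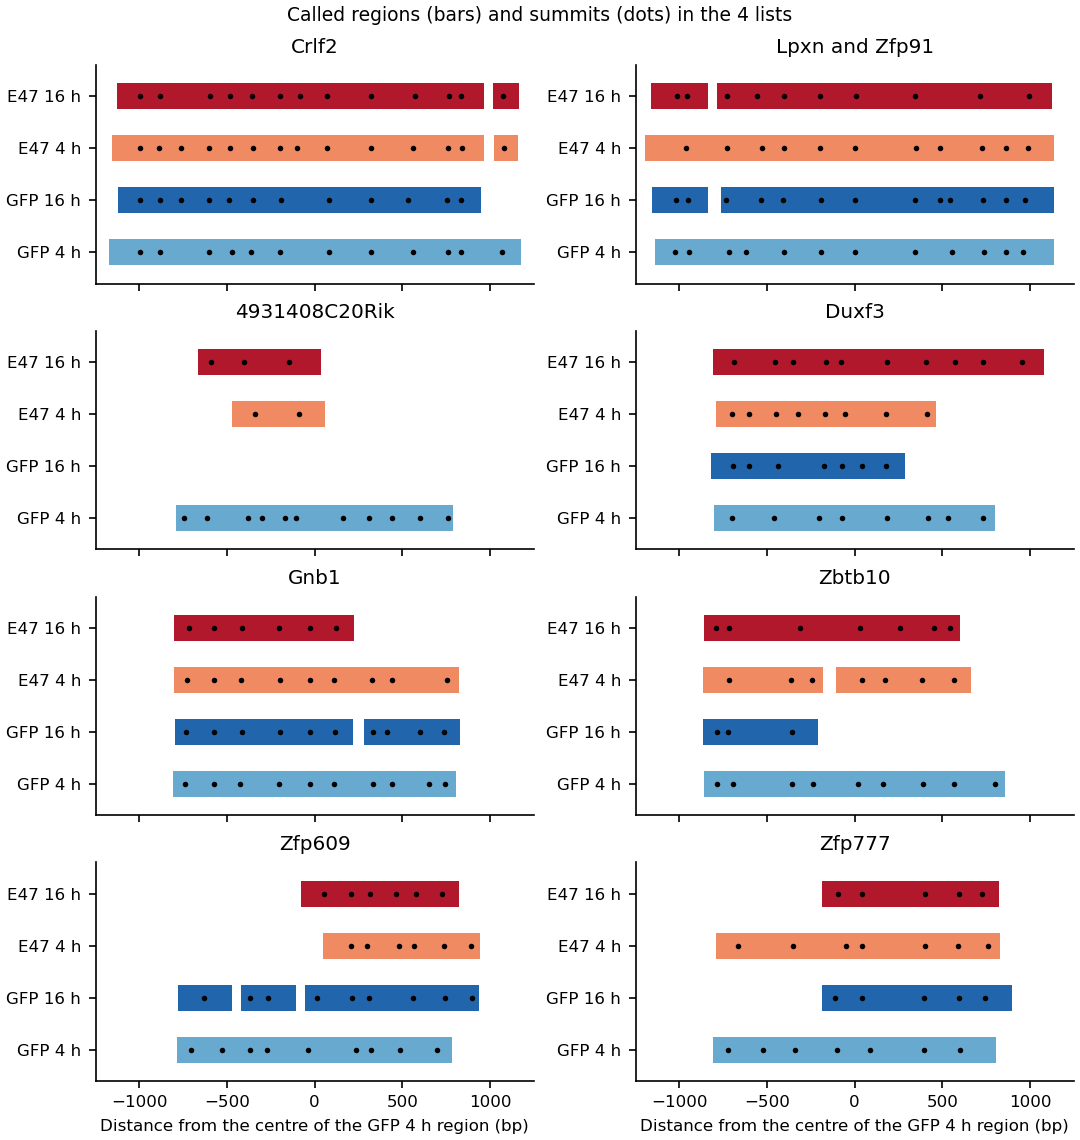
Called regions (bars) and summits (dots) in the 4 lists, by distance in bp from the centre of the GFP 4 h region with lower genome coordinates to the left, at the 2 widest regions and the 6 that passed 1.5-fold in any comparison. Zfp609 lacks its left part in both E47 lists, and Zbtb10 lacks its right part in GFP 16 h.

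Below 1.5-fold, the next widest in E47 16 h over GFP 16 h were Arhgap21 (1793 bp against 1324 bp), Spag9 (1660 bp against 1262 bp) and Maz with Kif22 (1716 bp against 1380 bp). Tent4b, Foxn2, B3gnt2, Klf13 and Celsr1 completed the 10 highest, down to a ratio of 1.17 at Celsr1. The next narrowest were Maco1 (1258 bp against 1698 bp), Camk2n1 (1176 bp against 1550 bp) and Obsl1 with Inha (1377 bp against 1711 bp). Chsy3, Zfp362, Fzd7, Cdc42ep3 and Vps9d1 with Zfp276 completed the 10 lowest, up to a ratio of 0.834 at Vps9d1.

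Widths were also set beside E-boxes. CAGCTG or CAGGTG was present in a promoter window of 42 regions and in none of the windows of 123. The median ratio of E47 over GFP was 0.997 with such an E-box and 0.991 without at 16 h, and 1.0033 with and 1.0035 without at 4 h. The 5th to 95th percentiles at 16 h were 0.890 to 1.14 with an E-box and 0.860 to 1.11 without, and the difference was not tested. GFP 4 h chose the regions for width, so nothing is read from the 4 h ratios. The windows cover a small part of each region, so E-boxes elsewhere in a region were not seen.

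The same rule was run on the other lists. It kept 228 regions in E47 16 h, 282 in E47 4 h and 241 in GFP 16 h, or 0.561%, 0.566% and 0.456% of each list. Wherever the choice was made, widths tended to be lower in the lists that did not choose, with 10 of 12 median ratios under 1 (0.962 to 1.003). Joined over the 4 lists there were 432 broad places, of which 101 were broad in all 4 (23.4%) and 173 in 1 list. Both E47 lists and neither GFP list were broad at 19, and both GFP lists and neither E47 list at 13. For scale, both 16 h lists alone were broad at 7, both 4 h lists alone at 12, E47 4 h with GFP 16 h at 23 and E47 16 h with GFP 4 h at 10, so 1 of these pairings exceeded both counts by vector. Of the 13 broad in GFP lists alone, Obsl1 with Inha, Vps9d1 with Zfp276, Acss1, Ptbp1 and Hipk3 were called as single regions in each list. Obsl1 with Inha had 1377 bp and 1384 bp in E47 16 h and 4 h, against 1711 bp and 1512 bp in GFP 16 h and 4 h. Hipk3 had 1484 bp and 1487 bp in E47 16 h and 4 h, against 1538 bp and 1661 bp in GFP 16 h and 4 h. At Gab2, Kmt2c and Arid1b the E47 lists held 2 or 3 regions whose widths still summed to over 1500 bp.

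By chromosome, 22 of the 216 lay on chromosome 3 (10.2%), which held 5.10% of all gene-end regions of GFP 4 h. There was 1 on chromosome X (0.463%, against 2.93%) and 0 on Y, where a single gene-end region was called.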

How the data were processed

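ATAC-seq libraries from 8 samples were analysed as 4 peak lists, 1 per group, taken from titles and the equal transduction and time labels. Per the labels, the authors pooled trimmed reads free of duplicates and mitochondrial reads and deposited conservative peak sets by irreproducible discovery rate. The submitters' processing notes name mm10 and the tools MACS2, Bowtie2, DiffBind and cutadapt, with no version or setting. Each deposited line holds a score (540 to 1000), a fold enrichment (a ratio over background) and the −log10 of p. Deposited −log10 p values started at 2.00 in all 4 lists. The score was not analysed further, nor was a q column. Such values depend on depth, which is unknown, so fold and −log10 p were used only within a list.

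Overlapping lines were merged, and regions of 2 lists that overlapped by 1 bp counted as shared. Width in another list is the sum over overlapping regions, and 1.5-fold was the size called. With 1 list per group there was no test, and counts are given beside those over all regions. Genes and promoter windows were RefSeq GRCm38.p6: 21900 protein-coding genes, of which 17492 had a window and hence a strand. No genome sequence or exons were used. The members and gene lists were chosen with earlier results of these data known. Named were the 10 widest, the 5 with most lines, the 10 highest and 10 lowest in E47 16 h over GFP 16 h, those past 1.5-fold at both times, those missing from a list, up to 4 per gene list and 5 on each side of the threshold. Other genes, and which promoters are printed among the 8 that the rule gave, were chosen after their values were seen.

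The code was tested on simulated lists, where 2000 of 2000 regions got back their summed width and gene-end call. Alternatives were other widths, distances, merging, thresholds, list lengths, overlaps, choosing lists, width measures and folds. Binomial intervals are exact 95% Clopper-Pearson intervals. Software was numpy 2.4.6, pandas 2.3.3, scipy 1.17.1 and matplotlib 3.10.9 under Python 3.11.15.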

Additional observations from a re-analysis of the deposited data

Results flagged for a closer look

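Duxf3 moved in opposite directions at the 2 times: its summed width was 1893 bp in E47 16 h against 1105 bp in GFP 16 h, and 1252 bp in E47 4 h against 1606 bp in GFP 4 h. The log2 ratio of E47 over GFP was 0.78 at 16 h and -0.36 at 4 h, a difference of 1.14. It was looked at again because it was the 1 region of 215 whose E47 over GFP ratio passed a set minimum size in opposite directions at the 2 times. The difference was not tested, GFP 4 h is the list that chose the region, and Duxf3 lies in a repeated array.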

How the results depend on the processing

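There were 17 alternatives, 1 of which (leaving out regions at Duxf3, histone and Gm, LOC or Rik genes) was chosen after seeing the data. No paired analysis was possible because each group has 1 list and no values per sample, and no replicate could be left out. Median width ratios stayed between 0.973 and 1.038 under every alternative run. The number of regions was 2889 at 1000 bp or more, 9 at 2000 bp or more and 466 with lines within 200 bp joined, against 216. Shares called in the 3 other lists reached 100% at 2000 bp, with GFP 16 h as the choosing list and without the multicopy and predicted genes, against 99.5%. The share at a gene start was 100% at 2000 bp, against 97.1%.

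Counts past 1.5-fold are named A for E47 16 h over GFP 16 h, B for E47 4 h over GFP 4 h, C for E47 16 h over E47 4 h and D for GFP 16 h over GFP 4 h, with 4, 2, 3 and 1 as reported. With the widest single region in place of the sum they were 24, 27, 22 and 33, since a split then counts as a loss of width. At 1000 bp they were 64, 31, 62 and 31, or 2.22%, 1.07%, 2.15% and 1.08% of the regions, against 1.86%, 0.926%, 1.39% and 0.465% as reported, and at 2000 bp 0 in each of the 9 regions. With members chosen in E47 4 h they were 9, 10, 13 and 5. At the lower of the other folds tried they were 8, 6, 12 and 11. At 2-fold A, B and C were 1, 1 and 0. With lines within 200 bp joined A, C and D were 14, 10 and 8. Chosen in E47 16 h, B, C and D were 7, 5 and 8. Chosen in GFP 16 h, they were 6, 7 and 9. By bases of the span covered D was 2, and without the multicopy and predicted genes B was 1.

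Median ratios that left the binomial interval of the reported median are given for the same comparisons, with 0.993, 1.003, 0.990 and 0.999 as reported. At 2000 bp they were 1.004, 0.992, 1 and 0.985. By bases covered they were 1, 0.994, 0.998 and 0.985. Chosen in E47 16 h they were 1.004, 1.015, 0.999 and 1.014. Chosen in GFP 16 h A, B and D were 0.976, 1.016 and 1.031. Chosen in E47 4 h B, C and D were 1.038, 0.973 and 1.016. By the widest single region B and D were 0.999 and 0.991. The cause of these shifts was not tested. Shortening the lists to equal length left the reported values as they were. The lines of a region share 1 interval, so its width cannot change while 1 line is left, and nothing is read from this. The same holds for the alternative with a higher minimum of −log10 p. How many lines the regions lost by shortening was not counted. Unknown depth, 1 list per group and the conflict of vector labels limit every comparison.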

Other observations

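Id2, an Id protein gene outside the 216 regions, was among the 19 places broad in both E47 lists and in neither GFP list. It had 1548 bp in E47 16 h and 1582 bp in E47 4 h, against 259 bp in GFP 16 h and 762 bp (2 regions) in GFP 4 h. St14, a membrane protease gene, and Plekho2 were in the same group of 19, but with GFP 16 h sums of 1879 bp and 1441 bp in several regions. Dyrk1a, a kinase gene, had 1669 bp and 1711 bp in E47 16 h and 4 h, against 1233 bp and 1223 bp in GFP 16 h and 4 h, as single regions. Slc44a1, a choline transporter gene, had 1764 bp and 1609 bp, against 1387 bp and 1106 bp, in the same order. These genes were chosen after their values were seen, the lists are 1 per group, and no test was made.

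Il13, which encodes a type 2 cytokine of ILC2s, was broad in both 16 h lists alone: 1573 bp in E47 16 h and 514 bp in E47 4 h, against 1566 bp in GFP 16 h and 1445 bp in GFP 4 h.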
